A study of Mus musculus with 2 samples.

Results

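The 7 genes described here, H2-Aa, H2-Ab1, H2-Eb1, H2-DMa, H2-DMb1, Cd74 and Ciita, encode the machinery by which cells present peptides on MHC class II molecules. They were chosen by name and found by their symbols among the 34285 genes of the deposited matrices, and all 7 had UMIs (unique molecular identifiers, each standing for 1 captured mRNA molecule) in both libraries. C57BL/6J mice were killed at PN15.5 (the postnatal day), and their lower first molars, taken with the tissue around them, were dissociated for droplet-based single-cell RNA sequencing. The Lipo-Clo library came from mice injected intraperitoneally with clodronate liposomes at 40 μg/g body weight, first on PN3.5, then on PN6.5 and PN9.5, and for a 4th and last time 3 days before harvest. The Lipo-PBS library came from mice given an equal volume of vehicle liposomes on the same days. Clodronate liposomes are taken up by phagocytes throughout the body and kill them. The study included mice of both sexes, and the number of mice behind each library is not given in the sources used here. With 1 library per condition there was no replicate check and no test was possible. Intervals are exact at the 95% level and cover counting error only, and every contrast compares these 2 libraries rather than the treatments.

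MHC class II molecules are pairs of an α and a β chain that carry peptides from endocytosed proteins to the cell surface, where CD4 T cells read them. The invariant chain, encoded by Cd74, occupies the groove of the new molecule and guides it to endosomes, and the H2-DM pair then exchanges the invariant chain remnant for peptides. Dendritic cells, B cells and activated macrophages are the classical presenting cells, and the coactivator CIITA switches the gene set on. H2-Aa and H2-Ab1 encode the α and β chains of the I-A molecule, H2-Eb1 encodes the β chain of I-E, and H2-DMa and H2-DMb1 encode the H2-DM chains. Cd74 protein also serves as a receptor for a cytokine, and CIITA is a scaffold that does not bind DNA itself but joins factors assembled on the X and Y boxes of class II promoters.

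The promoter windows of 3 members are printed because the spacing of these boxes is what the presenting genes share in sequence. Each is the 130 bases before the gene's start in the RefSeq annotation of mouse build GRCm38.p6, 5′ to 3′ on the gene's strand. Capitals mark GNAAC, a core of the X box, and TGATTGG, the Y box, which contains an inverted CCAAT sequence.
H2-Aa: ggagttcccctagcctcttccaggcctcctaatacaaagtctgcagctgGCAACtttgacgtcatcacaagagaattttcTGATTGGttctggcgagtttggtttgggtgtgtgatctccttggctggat
H2-Eb1: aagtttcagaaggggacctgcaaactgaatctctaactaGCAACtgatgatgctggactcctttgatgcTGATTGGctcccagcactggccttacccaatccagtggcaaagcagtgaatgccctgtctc
H2-DMb1: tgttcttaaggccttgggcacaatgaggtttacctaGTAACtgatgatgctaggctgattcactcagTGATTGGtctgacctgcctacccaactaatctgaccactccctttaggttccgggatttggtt
The H2-Aa window lies on the minus strand at chr17:34287824-34287953. The H2-Eb1 window, at chr17:34305737-34305866, and the H2-DMb1 window, at chr17:34153061-34153190, lie on the plus strand. From the first base of GNAAC to the first base of TGATTGG the distance was 31 bases in H2-Aa, 30 in H2-Eb1 and 31 in H2-DMb1. Windows were found for 4 of the 7 members, the other being H2-DMa, whose 2 windows hold neither arrangement. Among 8 class II genes with a window, counting H2-Oa, H2-Ob, H2-DMb2 and H2-Eb2, 7 held TGATTGG and 6 held GNAAC 20 to 45 bases upstream of it. Over all 32851 windows, 7.23% held TGATTGG on either strand in the 250 bases before the start, and 0.609% held the pair. The letters were chosen after these windows had been read, the motifs do not overlap, and a match describes the sequence and not a bound site.

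The Lipo-Clo matrix held 9362 cells and 31053404 UMIs, and the Lipo-PBS matrix 9653 cells and 30537834 UMIs. After filtering, 8254 and 8261 cells remained, with median depths of 2567 and 2678 UMIs. The libraries shared 30 cell barcodes, and mitochondrial genes took 0.370% of UMIs in Lipo-Clo and 1.73% in Lipo-PBS. Cells were clustered without the 7 genes, the other class II genes, and the class II processing and class II transcription genes listed further on. The interferon γ, costimulation and class I genes listed there were not left out. Names came from markers, so that each class name stands for cells like the named type (macrophage-like, mature B-like and so on). Clusters with markers of several lineages, or in 1 case with leading genes of another lineage, stayed unnamed, and these held 344 Lipo-Clo and 930 Lipo-PBS cells. Of those, 63 and 693 cells belonged to a single cluster led by Acta2, the smooth muscle actin gene.

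By level, class II expression was concentrated in dendritic cells, followed by mature B cells and by fractions of the monocytes and macrophages. The 56 Lipo-Clo and 54 Lipo-PBS dendritic cells were 0.678% and 0.654% of the cells, yet held 36.4% and 39.7% of all UMIs of the 7 genes. The Lipo-Clo share was 22.1% when clusters were cut at Leiden resolution 2 and 52.0% when the members and pathway genes were kept for clustering. Their summed level was 45653 CPM (UMIs scaled to counts per 1000000) in Lipo-Clo, against 50910 CPM in Lipo-PBS. The class had UMIs of 12 and 11 of its 13 listed markers, 309 UMIs in each library (1747 and 2379 CPM). Monocytes had UMIs of 11 and 11 of these markers, at 248 and 591 CPM. Macrophages had UMIs of 10 and 8, at 759 and 283 CPM. In the dendritic cluster 8 of the 13 passed the limits for naming, and none was among its 10 leading genes. In the 159 Lipo-Clo and 80 Lipo-PBS mature B cells the sum of the 7 genes was 11435 and 12842 CPM. In mesenchyme, the largest class with 4293 and 4081 cells, it was 78.4 and 62.9 CPM. The order by share of all UMIs of the 7 genes was another. Monocytes held 15.3% and 7.70% of them, and mature B cells 6.76% and 5.27%. Unnamed cells held 4143 of the 22185 UMIs in Lipo-Clo and 5003 of the 16670 in Lipo-PBS.

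Cd74, the invariant chain, was highest in dendritic cells, then in mature B cells, with monocytes, macrophages and the 15 plasmacytoid dendritic cells below them. In dendritic cells it stood at 21623 CPM in Lipo-Clo [20943, 22319], against 25586 CPM in Lipo-PBS [24723, 26471]. In mature B cells it stood at 9034 [8526, 9563] and 10081 CPM [9343, 10862]. Dendritic cells thus exceeded mature B cells 2.39-fold [2.24, 2.56] in Lipo-Clo and 2.54-fold [2.34, 2.76] in Lipo-PBS. Monocytes followed at 2579 and 4875 CPM, and macrophages at 4095 and 732 CPM. Plasmacytoid dendritic cells, 10 and 5 in number, had 5515 [4576, 6590] and 2035 CPM [1186, 3259]. The order of monocytes and macrophages differed between the libraries, being macrophages above monocytes in Lipo-Clo and the reverse in Lipo-PBS. B cell precursors had 327 and 782 CPM, osteoclasts 242 and 331 CPM, and neutrophils 135 and 57.2 CPM. In Lipo-Clo the intervals of precursors, 283 to 375 CPM, and osteoclasts, 192 to 300 CPM, overlapped, while in Lipo-PBS precursors, at 673 to 904 CPM, lay above osteoclasts, at 207 to 501 CPM. Neutrophils were lower than both in each library.

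The I-A and I-E chain genes set dendritic cells apart from B cells more widely than Cd74 did. H2-Aa was at 6083 CPM in Lipo-Clo dendritic cells and 6206 CPM in Lipo-PBS ones, against 541 and 614 CPM in mature B cells. The ratio of dendritic to mature B cells was 11.2-fold [8.83, 14.5] in Lipo-Clo and 10.1-fold [7.41, 14.1] in Lipo-PBS. For H2-Ab1 the dendritic levels were 5659 and 5675 CPM and the mature B levels 625 and 701 CPM, or 9.05-fold [7.22, 11.5] and 8.09-fold [6.04, 11.1]. For H2-Eb1 they were 10684 and 11557 CPM against 991 and 1067 CPM, a ratio of 10.8-fold in both libraries. The 3 intervals lay far above the 2.24 to 2.76 range of Cd74 in each library, so the chain genes and Cd74 were apportioned differently between these classes.

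H2-DMa and H2-DMb1, the peptide exchange factors, gave fewer UMIs but the same leading class. H2-DMa was at 831 and 986 CPM in dendritic cells, 196 and 376 CPM in monocytes, 221 and 234 CPM in mature B cells, and 126 and 53.4 CPM in macrophages. H2-DMb1 was at 718 and 862 CPM in dendritic cells, with UMIs in 67.9% and 68.5% of them. In mature B cells H2-DMb1 had only 3 UMIs in Lipo-Clo and 9 in Lipo-PBS, or 22.9 CPM [4.72, 66.8] and 131 CPM [60.1, 250]. Ciita, the regulator, was close to the detection limit, with 32 UMIs in all Lipo-Clo cells and 25 in all Lipo-PBS cells. Dendritic cells held 10 and 5 of these, or 56.5 CPM [27.1, 104] and 38.5 CPM (interval up to 89.8), and monocytes 7 and 2. Unnamed cells held 5 and 9, in Lipo-PBS more than dendritic cells, and B cell precursors 4 and 2. In mature B cells, where Ciita is known to be active, there was no UMI in Lipo-Clo and 1 in Lipo-PBS, and the absence of UMIs there allows a level of up to 22.9 CPM (3 UMIs).

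**Figure D1:**
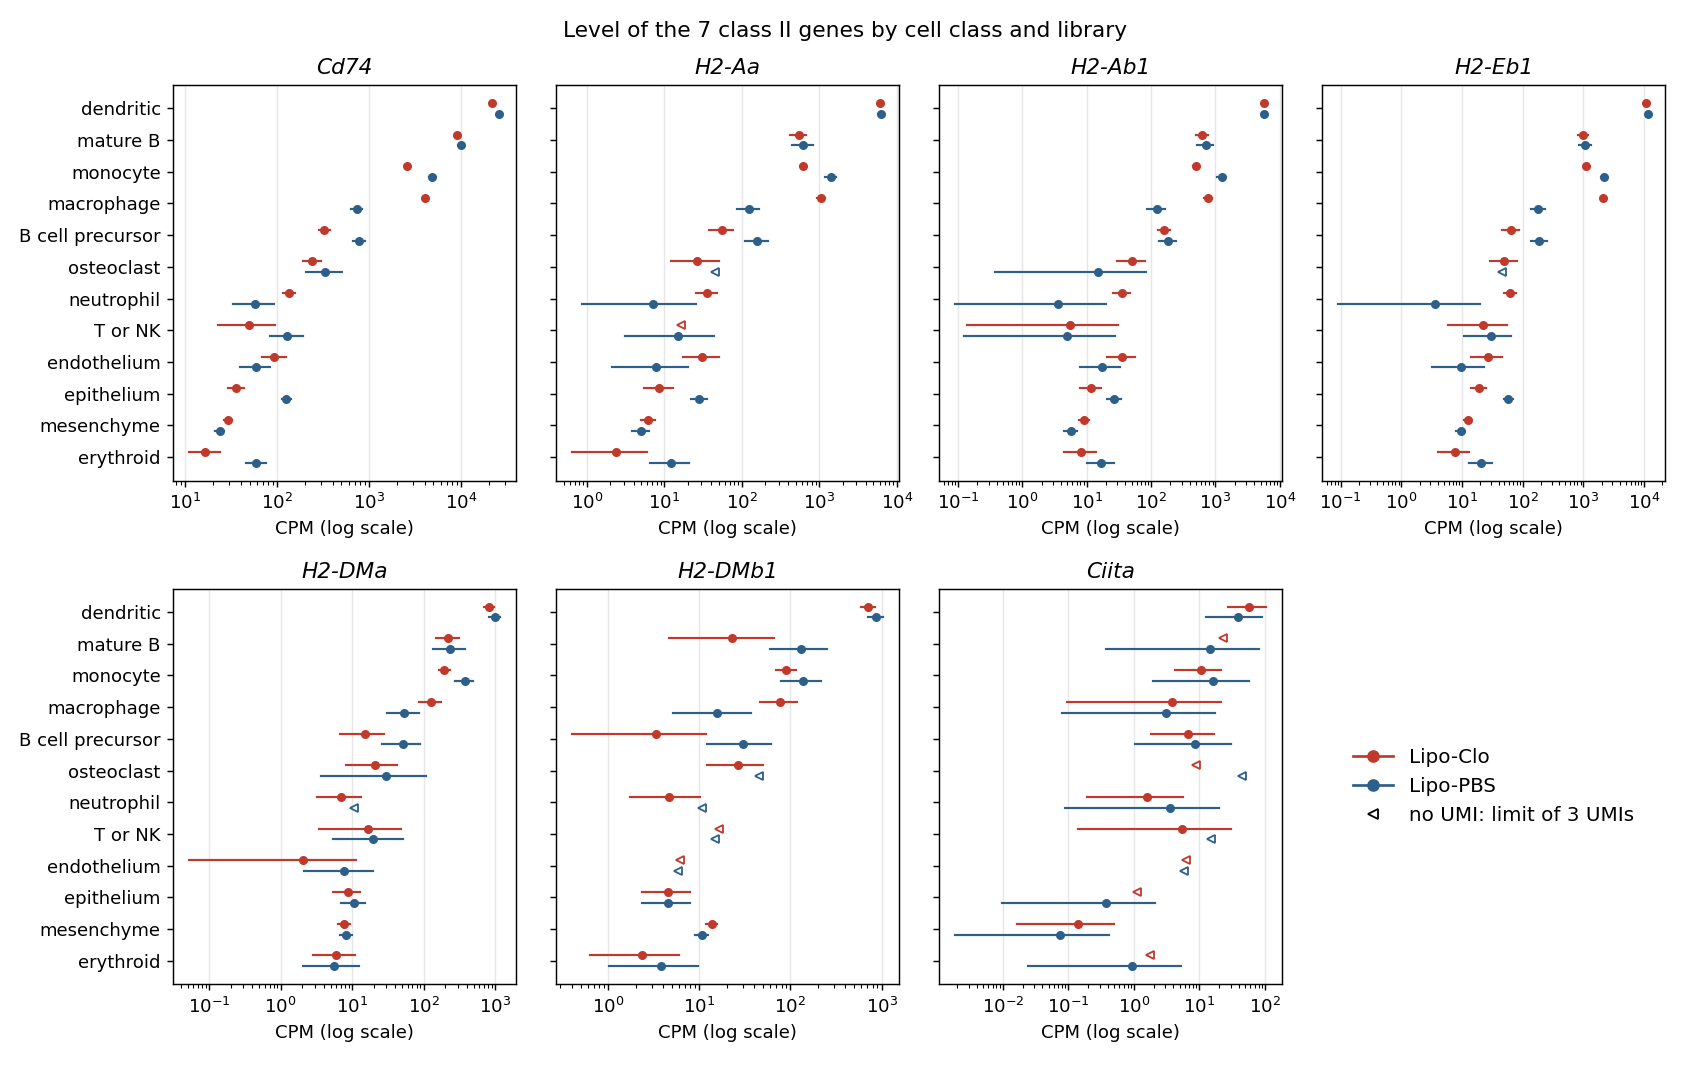
Level of each gene (CPM on a log scale, 1 panel per gene) in 12 cell classes, with Lipo-Clo in red and Lipo-PBS in blue; points are summed UMIs of a class scaled to its total, bars are exact 95% Poisson intervals, and open triangles mark classes with no UMI at the limit of 3 UMIs. Dendritic cells stand highest in all 7 panels, Cd74 in mature B cells reaches 9034 and 10081 CPM, and the macrophage points of the 2 libraries lie apart for the 6 genes other than Ciita.

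Setting each gene against Cd74 in the same cells removed the differences in total level. For dendritic against mature B cells this restates the contrast above from the same counts, and it extends the comparison to monocytes and macrophages. For every 100 Cd74 UMIs, dendritic cells held 28.1 H2-Aa UMIs [26.3, 30.1] in Lipo-Clo and 24.3 [22.4, 26.2] in Lipo-PBS. Monocytes held 23.9 and 28.7, and macrophages 25.8 and 16.7. Mature B cells held 5.99 [4.65, 7.62] and 6.09 [4.35, 8.32]. The intervals of these 3 myeloid classes did not reach those of mature B cells in either library. Osteoclasts, with 9 H2-Aa UMIs per 82 Cd74 UMIs in Lipo-Clo and 0 per 22 in Lipo-PBS, were too few to place. H2-Ab1 gave 26.2 and 22.2 per 100 in dendritic cells and 6.92 and 6.96 in mature B cells. H2-Eb1 gave 49.4 and 45.2 in dendritic cells and 11 and 10.6 in mature B cells. The distance was smaller for H2-DMa, with 3.84 and 3.85 in dendritic cells and 2.45 and 2.32 in mature B cells, where the Lipo-PBS intervals of 3.20 to 4.60 and 1.32 to 3.79 overlapped.

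B cell precursors did not share the low ratio of mature B cells. They held 16.8 and 20.2 H2-Aa UMIs per 100 Cd74 UMIs, 19.8 and 24.0 H2-Eb1 UMIs, and 48.7 [37.8, 62.5] and 23.5 [16.4, 32.9] H2-Ab1 UMIs. Their Cd74 counts were small, 197 and 183 UMIs, and in Lipo-PBS 1 of the 131 precursors held 222 of the 328 member UMIs of the class. In Lipo-Clo, H2-Ab1 had a UMI in 21.9% of precursors while H2-Aa had one in 6.93%.

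**Figure D2:**
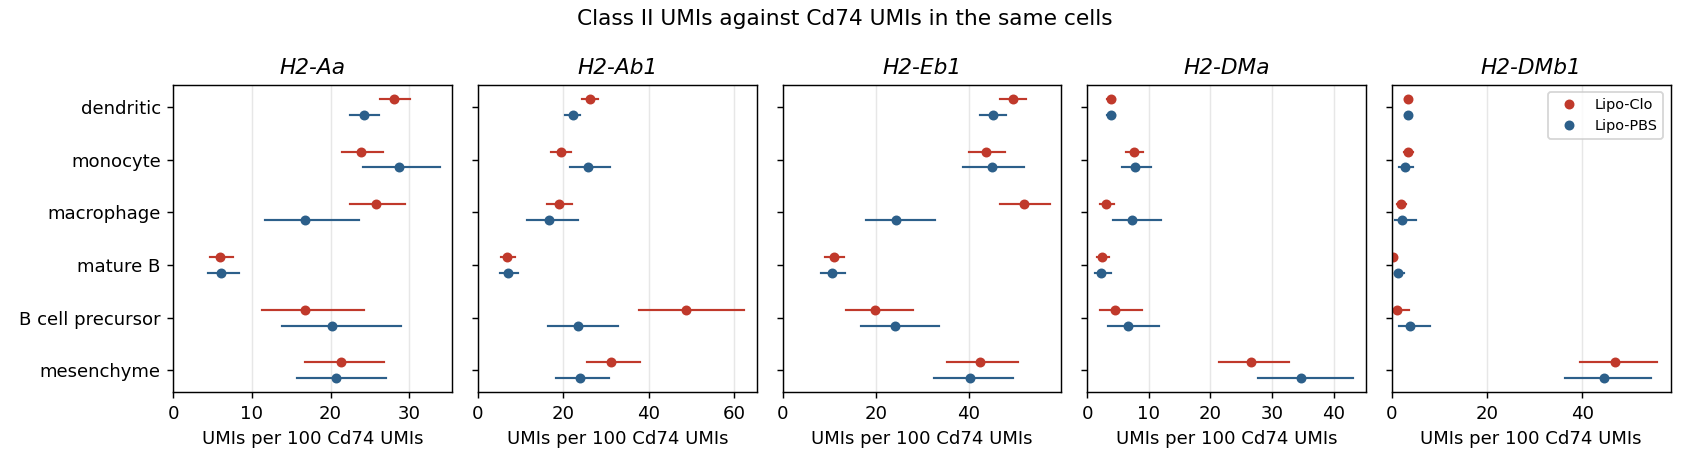
UMIs of H2-Aa, H2-Ab1, H2-Eb1, H2-DMa and H2-DMb1 per 100 Cd74 UMIs of the same class (linear axes, 1 panel per gene), with Lipo-Clo in red and Lipo-PBS in blue; points are ratios of summed UMIs and bars exact 95% intervals. Mature B cells lie lowest for the 3 chain genes, near 6, 7 and 11 per 100, and mesenchyme is the highest of the classes drawn for H2-DMa and H2-DMb1.

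H2-DMb1 followed another pattern outside the immune cells. Mesenchyme held 198 H2-DMb1 UMIs in Lipo-Clo and 144 in Lipo-PBS, or 13.7 CPM [11.8, 15.7] and 10.6 CPM (interval from 8.95). Endothelium held none in 358 and 366 cells, which allows up to 6.18 CPM and 5.84 CPM. The cells with a UMI were 4.19% and 3.28% of mesenchyme, at median depths of 2839 and 2968 UMIs, and 1.00% and 1.48% of erythroid cells, which should lack the gene, at 3668 and 3319 UMIs. Against 100 Cd74 UMIs, mesenchyme gave 46.9 [39.4, 55.7] and 44.6 [36.4, 54.4] H2-DMb1 UMIs, where dendritic cells gave 3.32 and 3.37. H2-DMa gave 26.5 and 34.7 in mesenchyme, and H2-Aa 21.3 and 20.7, which is close to the dendritic value. In erythroid cells of both libraries together, with 91 Cd74 UMIs, H2-DMb1 gave 8.79 per 100 [3.68, 18.1], below the mesenchymal values, and H2-DMa 17.6 [9.64, 30.1], which overlapped them. The H2-DMa level was 7.73 and 8.25 CPM in mesenchyme and 5.88 and 5.66 CPM in erythroid cells, and glia reached 15.3 and 25.3 CPM, so that a high ratio of H2-DMa to Cd74 was not particular to mesenchyme.

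Mesenchymal cells with an H2-DMb1 UMI had another member's UMI in 15% [10.1, 21.1] of cases in Lipo-Clo and 12.7% [7.57, 19.5] in Lipo-PBS. Cells without it had one in 10.4% and 9.07%, at lower median depths of 2795 and 2934 UMIs against 4156 and 4317. Over 10 mesenchymal clusters, both libraries together, H2-DMb1 ranged from 4.61 CPM in the cluster led by Clec3b, a gene of fibroblasts, to 18.4 CPM in the cluster led by Bglap, the osteocalcin gene. All these levels are far below the 718 and 862 CPM of dendritic cells. Cd74 in mesenchyme was at 29.1 [26.4, 32.1] and 23.8 CPM [21.3, 26.5], with a UMI in 4.15% and 4.19% of cells. In erythroid cells it was at 16.5 [10.9, 23.8] and 59.4 CPM [45.7, 76.0], in 2.51% and 5.19%. Mesenchyme thus lay above erythroid cells in Lipo-Clo and below them in Lipo-PBS. Over the mesenchymal clusters Cd74 ranged from 11.5 CPM to 104 CPM, the latter in the same Bglap cluster in which H2-DMb1 was highest. In Lipo-Clo 1 mesenchymal cell held 185 of the 1135 member UMIs of the class, 83 of them from Cd74. The cluster of this cell is not given here, and the part of single cells in the range was not tested.

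At the level of single cells a cell was called class II positive when it held at least 3 UMIs over the 7 genes. This took 96.4% and 98.1% of dendritic cells, 69.2% and 67.5% of mature B cells, and 11.7% and 10.7% of B cell precursors, Lipo-Clo given first. In mesenchyme it took 0.839% and 0.760%, and in erythroid cells 1.00% and 3.33%, so erythroid cells mark the background. Mature B cells were shallow, with medians of 691 and 781.5 UMIs, against 3339.5 and 2376 in dendritic cells. When each cell was thinned to 1000 UMIs, the mature B share was 94.7% of 19 cells and 83.3% of 12, with 140 and 68 shallower cells left out. Among macrophages 40 of 123 were positive in Lipo-Clo, 32.5% [24.4, 41.6], and 17 of 136 in Lipo-PBS, with an interval of 7.45 to 19.3%. Monocytes gave 32.3% [24.5, 41.0] and 34.8% [21.4, 50.2].

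Nearly all dendritic cells and most mature B cells held class II UMIs, while monocytes and macrophages were a mixture of cells with many and cells with none. The median dendritic cell devoted 502 and 503 of 10000 UMIs to the 7 genes, and the middle 50% of cells lay between 327 and 642 for Lipo-Clo, and between 328 and 677 for Lipo-PBS. The median mature B cell devoted 71.9 and 78.3. The median macrophage devoted 3.98 in Lipo-Clo and 0 in Lipo-PBS, although the 90th percentile reached 230 and 21.8. In monocytes the medians were 1.96 and 1.12 and the 90th percentiles 352 and 319. The 5 highest macrophages held 47.9% of the class's member UMIs in Lipo-Clo and 63.4% in Lipo-PBS, and the 5 highest monocytes 31.7% and 63.0%.

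**Figure D3:**
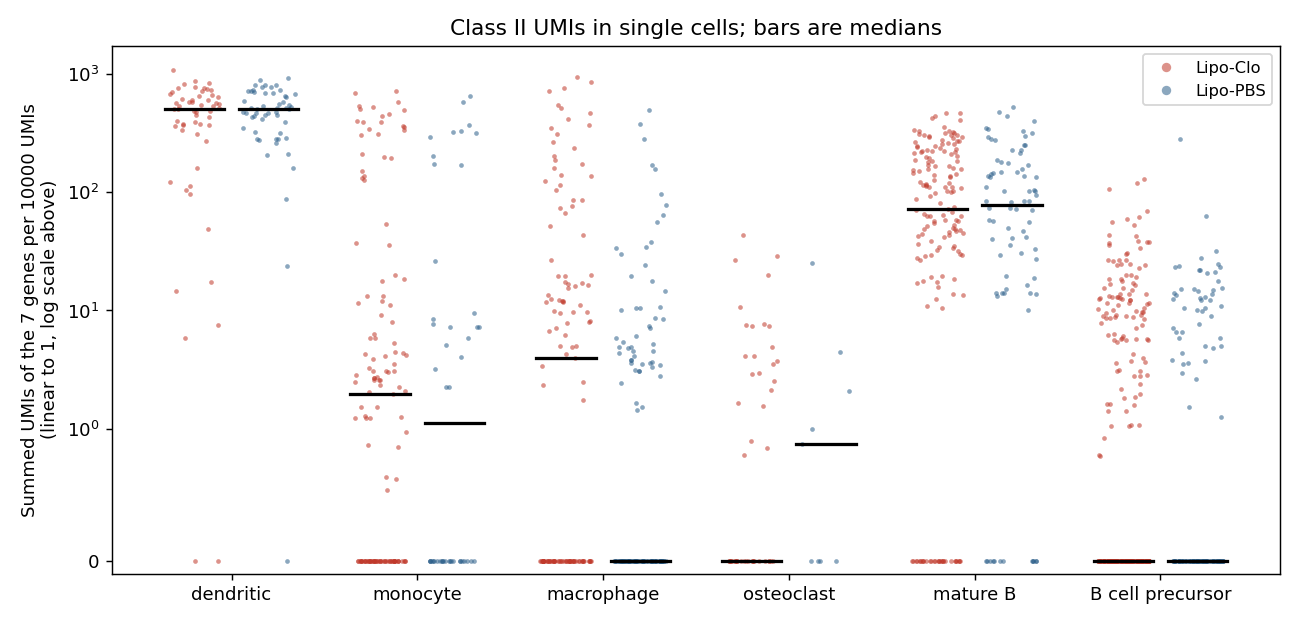
Summed UMIs of the 7 genes per 10000 UMIs in each cell of 6 classes (y axis linear to 1 and logarithmic above), with Lipo-Clo in red, Lipo-PBS in blue and black bars at the medians. Dendritic cells cluster near 500, mature B cells near 75, and monocytes and macrophages spread from 0 to above 100 in both libraries.

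Positive cells also differed in how many members they showed. Positive dendritic cells had UMIs of a median of 6 of the 7 genes, positive macrophages 4 in each library, and positive mature B cells 2 in each. Both I-A chains, H2-Aa and H2-Ab1, were seen together in 90.7% and 96.2% of positive dendritic cells, 55% and 52.9% of positive macrophages, and 17.3% and 22.2% of positive mature B cells. Cd74 alone was seen in 35.5% and 37.0% of positive mature B cells and in none of the 54 and 53 positive dendritic cells. Positive mature B cells had median depths of only 747.5 and 819.5 UMIs, so the part of depth in these shares was not tested.

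The dendritic cells of the 2 libraries differed little in the 7 genes. None of the 6 members with at least 20 UMIs was 1.5-fold higher or lower in Lipo-Clo, where 14% of the 1877 genes measured in this class were higher by that factor and 18.5% lower. The log2 ratio of Lipo-Clo over Lipo-PBS was -0.24 [-0.31, -0.18] for Cd74, -0.03 [-0.16, 0.10] for H2-Aa, -0.0041 [-0.14, 0.14] for H2-Ab1 and -0.11 [-0.21, -0.01] for H2-Eb1. It was -0.25 [-0.60, 0.11] for H2-DMa and -0.26 [-0.64, 0.12] for H2-DMb1. For the sum it was -0.16 [-0.20, -0.11], between -0.29 and 0.07 under the other settings that gave a value. With each library clustered by itself no ratio could be formed, since Lipo-PBS then had no dendritic class.

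In macrophages the members were higher in the Lipo-Clo library when both libraries were clustered together. Cd74 was at 4095 CPM [3854, 4347] in Lipo-Clo against 732 CPM [641, 832] in Lipo-PBS, H2-Aa at 1056 and 122 CPM, H2-Ab1 at 774 and 122 CPM, and H2-Eb1 at 2120 and 179 CPM. The log2 ratios were 2.48 [2.28, 2.70], 3.11 [2.62, 3.63], 2.66 [2.16, 3.19] and 3.57 [3.17, 3.99]. For H2-DMa, with 33 and 17 UMIs, it was 1.24 [0.35, 2.17], and for H2-DMb1, with 20 and 5, it was 2.28 [0.82, 4.05]. All 6 members with at least 20 UMIs were thus past 1.5-fold higher, where 13.7% of the 4190 genes measured in macrophages were higher and 22% lower. Ciita had 1 UMI in each library. The sum had a log2 ratio of 2.75 [2.59, 2.91].

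Most of this difference lay in 1 of the 3 macrophage clusters. In the cluster led by Lyz2, with 54 Lipo-Clo and 32 Lipo-PBS cells, Cd74 was at 8041 CPM [7519, 8590] against 440 CPM [307, 612], and its Lipo-Clo cells held 1834 of the 2164 member UMIs of that library's macrophages. In the cluster led by Ccl4, a chemokine gene, with 56 and 68 cells, Cd74 was at 1412 CPM [1217, 1629] against 968 CPM [826, 1127]. In the cluster led by Pf4 and Mrc1, with 13 and 36 cells, it was at 206 CPM [56.2, 528] against 475 CPM [325, 670], lower in Lipo-Clo with overlapping intervals.

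The size of this difference, and with separate clustering its direction, changed with how the cells were divided into classes. When each library was clustered by itself, 48 of the 54 Lipo-PBS dendritic cells fell into its macrophage class, and the log2 ratio of the sum became -0.26. The positive shares then were 41.7% and 38.2%. Under the other settings it stayed between 0.89 and 3.31, and without the 5 highest cells of each library it was 3.31. A count that needed no clustering took every cell with at least 3 UMIs of C1qa, C1qb and C1qc, the complement genes that mark tissue macrophages. It held 149 Lipo-Clo and 216 Lipo-PBS cells, of which 30.9% [23.6, 39.0] and 15.7% [11.2, 21.3] were class II positive, with Cd74 at 3173 and 1259 CPM. Cells with at least 3 C1q UMIs also lay in unnamed clusters. The Acta2 cluster had 1 and 55 of them, and 29 and 2261 member UMIs. An unnamed Ccl4 cluster of 3 and 23 cells had 1 and 20, and 108 and 449 member UMIs. Another, of 44 and 45 cells, had 15 and 24, and 2753 and 1586 member UMIs. The part of unnamed cells in the macrophage ratio was not tested.

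Summed together, positive macrophages in Lipo-Clo had UMIs of both macrophage and dendritic markers. Such sums do not show whether the same cells held both. Of the 40, 72.5% had at least 3 C1q UMIs, and their C1q level was 7119 CPM, against 9758 CPM in the 83 cells below the limit. The 13 dendritic markers summed to 1147 CPM in the positive cells, with 4 markers at 0, and to 501 CPM in the others. In Lipo-PBS the 17 positive cells had 5401 CPM of C1q and 149 CPM of dendritic markers, with 9 markers at 0. The 119 Lipo-PBS cells below the limit had 7569 and 302 CPM, with 6 markers at 0. The dendritic marker sum was thus higher in positive cells in Lipo-Clo and lower in positive cells in Lipo-PBS. Of the dendritic markers, only Cd209a, Flt3 and Zbtb46 are given singly, and the others only within the sums. Cd209a, which marks monocyte-related dendritic cells, had no UMI in any macrophage and 57 and 88 UMIs in positive dendritic cells. Flt3, a cytokine receptor of dendritic cells and progenitors, had 5 UMIs in the 40 positive Lipo-Clo macrophages and none in the 17 of Lipo-PBS, against 11 in the positive dendritic cells of each library. Zbtb46, a transcription factor of classical dendritic cells, had none in positive macrophages, 2 and 3 UMIs in the macrophages below the limit, and 4 and 2 in positive dendritic cells. The part of dendritic cells within the macrophage class was not tested beyond these values.

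**Figure D4:**
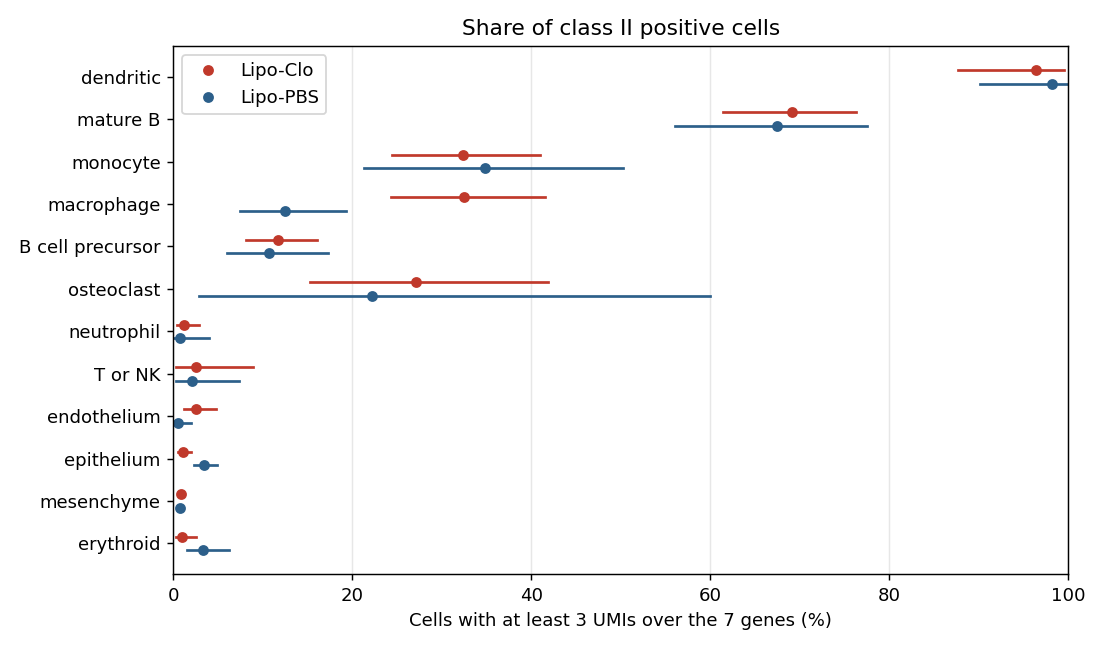
Share of cells with at least 3 UMIs over the 7 genes (percent, x axis) in 12 classes, with Lipo-Clo in red and Lipo-PBS in blue; bars are exact 95% binomial intervals. The intervals of the 2 libraries are apart for macrophages, 24.4 to 41.6% and 7.45 to 19.3%, and overlap for dendritic, mature B and monocyte cells. They are also apart for epithelium, in the other direction, at 0.486 to 2.01% in Lipo-Clo and 2.25 to 4.91% in Lipo-PBS.

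Summed over the class, monocytes showed lower members in Lipo-Clo by the joint clustering, without a stable direction and not in each monocyte cluster. Cd74 was at 2579 and 4875 CPM, H2-Aa at 617 and 1399 CPM, and the log2 ratio of the sum was -1.0 [-1.09, -0.91]. The 6 members with at least 20 UMIs were past 1.5-fold lower, where 30.3% of the 4017 genes measured were lower and 16.7% higher. In the monocyte cluster led by Lyz2, with 69 and 31 cells, the sum was at 12710 [12203, 13233] against 12037 CPM [11160, 12964]. In the one led by S100a8, with 64 and 15 cells, it was at 2176 [2046, 2312] against 8713 CPM [8021, 9448]. The whole class held 133 and 46 cells, and neutrophil markers summed to 21657 CPM in Lipo-Clo against 8783 CPM in Lipo-PBS. The log2 ratio of the class sum was positive under 6 of 13 other settings, among them 0.38 with doublet calls kept and 0.35 with each library clustered by itself. Over the myeloid classes together (macrophage, monocyte, dendritic and osteoclast) no member passed 1.5-fold, where 14.2% of 7923 genes were higher and 33.6% lower, and the sum had a log2 ratio of -0.44 [-0.48, -0.40]. This direction was not stable either, with -0.0044 under a stricter cell filter (a minimum of 500 genes and no more than 10% mitochondrial UMIs), 0.05 at Leiden resolution 2 and 0.16 with members and pathway genes kept for clustering.

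Mature B cells, in contrast to macrophages, had close levels in the 2 libraries. The log2 ratio was -0.16 [-0.29, -0.02] for Cd74, -0.18 [-0.75, 0.41] for H2-Aa, -0.17 [-0.70, 0.38] for H2-Ab1, -0.11 [-0.53, 0.33] for H2-Eb1 and -0.08 [-1.01, 0.90] for H2-DMa. None of these 5 members with at least 20 UMIs passed 1.5-fold, where 17.3% of 1694 genes were higher and 20.2% lower. The sum, at -0.17 [-0.29, -0.05], turned positive under 8 of 13 other settings, up to 0.52. Macrophage markers summed to 38.1 CPM in Lipo-Clo against 541 CPM in Lipo-PBS mature B cells, neutrophil markers summed to 1319 and 219 CPM, and their part was not tested.

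Over mature B cells and precursors together the members were lower in Lipo-Clo, with the wider gap in the summed precursors, though not in each precursor cluster. The sum was at 2560 and 3990 CPM, a log2 ratio of -0.64 [-0.75, -0.53], and 5 of the 6 members with at least 20 UMIs were past 1.5-fold lower, where 26.8% of 5932 genes were lower and 8.97% higher. In precursors alone the sum was at 630 and 1401 CPM, and 4 of 5 members were lower, where 26.7% of 5079 genes were lower and 9.82% higher. In the precursor cluster led by Igll1 the sum was lower in Lipo-Clo, at 307 and 3721 CPM. A single Lipo-PBS cell held 222 of the 233 member UMIs there. In the other precursor clusters, both led by Vpreb3, the sum was higher in Lipo-Clo. It was at 1166 [981, 1375] against 557 CPM [410, 738], and at 1040 [869, 1235] against 552 CPM [405, 733]. Over all precursors the 8 neutrophil markers summed to 3416 CPM in Lipo-Clo against 103 CPM in Lipo-PBS, and the 12 macrophage markers to 58.0 and 154 CPM, and their part in the result was not tested. Without the 5 highest cells of each library, the log2 ratio fell to -0.02 in precursors and -0.19 in B cells together. With each library clustered by itself it was 0.02 in B cells together. The positive shares, 32.8% and 32.2%, were alike within their intervals of 28.4 to 37.4% and 26.0 to 39.0%.

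Over all cells the 7 genes summed to 826 CPM in Lipo-Clo against 645 CPM in Lipo-PBS. Their log2 ratio was 0.36 [0.33, 0.39]. None of the 7 members passed 1.5-fold, where 6.54% of 17721 genes were higher and 14.3% lower. The positive cells were 439 of 8254, 5.32%, and 433 of 8261, 5.24%. Their makeup differed, however, since B cells made up 32.3% of the positive Lipo-Clo cells and 15.7% of the Lipo-PBS ones, and unnamed cells 13.9% and 40.0%. Macrophages made up 9.11% and 3.93%, and dendritic cells 12.3% and 12.2%. In the summed data more cells of a class and more RNA per cell cannot be told apart, and the unnamed cells could not be assigned.

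**Figure D5:**
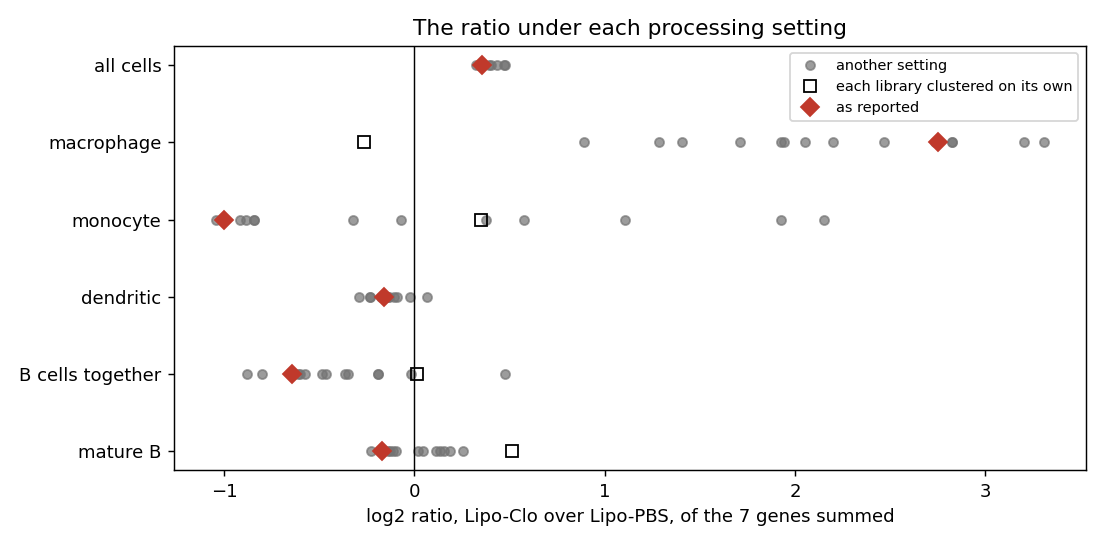
The log2 ratio of Lipo-Clo over Lipo-PBS of the 7 genes summed (x axis) in 6 groups of cells, with the reported value as a red diamond, other processing settings in grey and separate clustering of each library as an open square. The dendritic values drawn stay between -0.29 and 0.07, while macrophages run from -0.26 to 3.31 and monocytes from -1.04 to 2.15. Dendritic cells have no open square because Lipo-PBS had no dendritic class when clustered by itself.

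The other genes of the pathway were taken as lists, with calls past 1.5-fold among genes with at least 20 UMIs. Of 15 genes of class II processing, all measured in macrophages, 3 were higher in Lipo-Clo and 3 lower. Over all genes measured in macrophages 13.7% were higher and 22% lower. The median log2 ratio of the list was -0.01 against -0.07 over all genes. Of the list, 3 genes on either side are named here. Higher were Cst3, a cathepsin inhibitor, at 8263 and 3979 CPM (log2 ratio 1.05 [0.95, 1.16]), Ifi30, the endosomal thiol reductase, at 808 and 452 CPM (0.84), and Ctsh, a cathepsin, at 397 and 261 CPM (0.61). Lower were Marchf1, the ubiquitin ligase that removes class II from the surface, with 8 and 25 UMIs (-1.36 [-2.72, -0.17]), the protease gene Ctsb at 2204 and 3435 CPM (-0.64), and Cd83, which opposes Marchf1, at 477 and 732 CPM (-0.62). The list therefore moved in both directions. None of the 5 class II transcription genes that could be measured in macrophages passed 1.5-fold.

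Among 7 measured genes of class I presentation, 4 were higher in Lipo-Clo macrophages and none lower, with a median log2 ratio of 0.62, where 13.7% of all genes measured in macrophages were higher and 22% lower. They were Psmb9 at 1.06 [0.24, 1.91] and Psmb8 at 1.0 [0.56, 1.46], which encode immunoproteasome subunits, the peptide loading gene Tapbp at 0.89 [0.09, 1.71], and the class I heavy chain gene H2-K1 at 0.62 [0.36, 0.88]. These list values hold for the joint clustering and were not computed with each library clustered by itself, which reversed the members in macrophages. Of 6 measured genes of the interferon γ response, 1 was higher and 2 were lower. Irf1, a transcription factor induced by interferon, was lower at 30.5 and 151 CPM, -2.30 [-3.60, -1.21], and the kinase gene Jak1 was lower at -1.03 [-1.63, -0.45]. Cd86, the costimulatory ligand and the only gene measured of 6 in its list, was at 198 and 446 CPM, -1.17 [-1.66, -0.70].

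In dendritic cells 1 of 11 measured processing genes was lower, Cd83 at 175 and 300 CPM (-0.78 [-1.51, -0.06]), and none was higher. Over all 1877 genes measured in dendritic cells, 14% were higher and 18.5% lower, which applies to each list of this class. The immunoproteasome genes Psmb8, at 1051 and 516 CPM (1.03 [0.62, 1.45]), and Psmb9, at 283 and 100.1 CPM (1.5 [0.60, 2.5]), were the 2 of 5 class I genes past 1.5-fold higher. Irf8, a transcription factor of dendritic cell development and 1 of 2 transcription genes measured, was at 215 and 131 CPM, 0.71 [-0.15, 1.63], an interval that includes 0. Irf1, at -1.28 [-2.64, -0.01], and Jak2, at -1.03 [-2.53, 0.38], were the 2 of 5 interferon genes past 1.5-fold lower. In B cells together 6 of 13 processing genes and 3 of 10 transcription genes were lower and none higher, where 26.8% of all genes measured in B cells were lower and 8.97% higher, so the transcription list stood near the share over all genes. Its 3 were Nfya at -1.05 and Nfyc at -1.03, subunits of the factor that binds the Y box, and Pax5, the B lineage regulator, at -0.94 [-1.40, -0.47]. In B cells the median over all genes was itself -0.17. Among the lower processing genes were Sppl2a, whose protease clears the remnant of the invariant chain, at -0.97 [-1.78, -0.15], and Ctss at -0.93 [-1.5, -0.36]. Of 7 interferon genes 2 were higher and 3 lower, and of 8 class I genes 1 was higher, the peptide transporter gene Tap1 at 0.67 [-0.48, 2.01], an interval that includes 0.

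Of the other class II genes, H2-Oa, H2-Ob and H2-DMb2 were higher in mature B cells than in macrophages. Macrophages had 0 and 1 UMIs of H2-Oa and 3 and 0 of H2-DMb2. B cell precursors had 1 UMI of H2-DMb2 in each library. H2-Oa and H2-Ob encode H2-DO, an inhibitor of H2-DM, and H2-DMb2 is a second H2-DM β chain gene whose sequence resembles H2-DMb1, so that reads could be shared between them. H2-DMb2 was at 175 CPM in Lipo-Clo against 219 CPM in Lipo-PBS mature B cells and at 39.6 and 15.4 CPM in dendritic cells. The dendritic level was 0.226-fold [0.0818, 0.543] and 0.0703-fold [0.00780, 0.302] that of mature B cells, the reverse of H2-DMb1, whose ratios were 31.4-fold and 6.56-fold. H2-Ob was at 160 and 146 CPM in mature B cells, 73.5 and 100.1 CPM in dendritic cells, and had 2 UMIs in the macrophages of each library. H2-Oa was at 76.2 and 161 CPM in mature B cells and 79.1 and 108 CPM in dendritic cells, with intervals that overlap. H2-Ea, the I-E α chain gene that C57BL/6 mice are known not to express, had 3 UMIs in all Lipo-Clo cells and none in Lipo-PBS, so that H2-Eb1 was counted without its partner. H2-Eb2 had 7 and 3 UMIs over all cells.

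The genes whose profile was most like the mean of the 7 members were sought over 33 profiles of log2(CPM + 1), each a class in a library, from 19 classes. Of 13830 candidates, the closest were Ctss (r = 0.900), the cathepsin that cleaves the invariant chain, Irf5 (r = 0.898), a transcription factor of myeloid and B cells, and Pld4 (r = 0.895), an endolysosomal nuclease. They were followed by Ly86, Rnase6, Ifi30, Cd83, Gm15987, Naaa and Fcgr2b, at r between 0.846 and 0.876. The profiles share libraries and depth, and these correlations are descriptions. Of the members, H2-Eb1 lay closest to the mean of all 7 (r = 0.981) and Ciita, with few UMIs, farthest (r = 0.753). H2-Aa and H2-Ab1, whose products pair, had r = 0.974 with each other, and H2-DMa and H2-DMb1 had r = 0.885. Rnase6, at 143 CPM in dendritic and 255 CPM in mature B cells, was at 12.1 CPM in macrophages, whereas Ctss was highest in macrophages, at 1465 CPM against 1121 CPM in dendritic cells, so likeness over all classes did not mean the same order within the immune ones.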

How the data were processed

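For 2 droplet libraries the authors deposited matrices of UMI counts, genes by cells, without normalization. The submitters' processing notes name Cell Ranger 3.1.0, Seurat 3.1.1 and builds GRCm39 and mm39, while the matrix headers name another Cell Ranger release. The deposited counts were used as they stand.

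Cells with under 200 genes or over 20% mitochondrial UMIs were removed (473 and 3 in Lipo-Clo, 748 and 11 in Lipo-PBS). Scrublet (scanpy 1.11.5) called 0 and 1 doublets by its automatic threshold, so the highest scores, 0.8% per 1000 cells, were removed instead (632 and 633 cells). Counts scaled to 10000 per cell and log-transformed gave 2000 variable genes, 30 components and 20 neighbours for Leiden clustering (leidenalg 0.10.2) at resolution 1, and at 1.5 for immune cells, of both libraries together without the members and listed genes. Names needed at least 3 markers, each 2-fold above the median cluster and in 10% of cells. The files' symbols Vpreb1a and Vpreb1b were added for Vpreb1. Immune classes were B cell precursor, mature B, macrophage, monocyte, dendritic, osteoclast and others.

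UMIs were summed per class and library and given as CPM, with exact Poisson intervals for sums, exact Clopper-Pearson intervals for shares and exact conditional intervals for ratios (scipy 1.17.1). UMIs of 1 cell are not independent, so these intervals are too narrow where few cells hold most UMIs. Genes named beyond the members and other class II genes were up to 3 per direction and list with the largest ratio among those with at least 20 UMIs, and the 10 closest by correlation among genes with at least 100 UMIs. H2-K1 in macrophages, the 4th of its list, was named after its value was seen. Members and lists were chosen with earlier results of these data known, and the naming rules were settled after the data had been seen. Calls past 1.5-fold, and medians of lists and of all genes, used ratios of counts plus 0.5, whereas ratios printed for a gene used the counts alone. The values of 1 listed gene are not reported here, though counts over its list include it. The calculations were checked on simulated data. Alternatives used edgeR 4.0.16 (TMM) and DESeq2 1.42.0 (size factors) for scaling only. Sequences are from RefSeq tables of GRCm38.p6, whose coordinates were not joined to the counts.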

Additional observations from a re-analysis of the deposited data

How the results depend on the processing

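No paired analysis was possible because only 1 library stands for either treatment and no result comes from a test. The cause of the changes below was not tested, and 1 library was never left out since none would remain. Values are log2 ratios of the 7 genes summed, Lipo-Clo over Lipo-PBS, unless another quantity is named, and alternatives on the 5 highest cells and on immune resolution 1 were chosen after seeing the data. Scaling by TMM or DESeq2 size factors raised all ratios by 0.17 or 0.15 in B cells, 0.24 or 0.23 in myeloid cells and 0.12 or 0.11 in all cells.

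Macrophages (2.75 as reported) gave 1.41 with doublet calls kept, 1.93 with a minimum of 500 genes and no more than 10% mitochondrial UMIs, 1.71 with every deposited cell, 0.89 and 3.20 at Leiden resolutions 0.5 and 2, 2.05 with members and pathway genes kept for clustering, 1.94 at immune resolution 1, 1.29 with classes from marker UMIs, 3.31 without the 5 highest cells, 2.20 as the mean over cells and 2.47 at the same mixture of clusters. With each library clustered by itself the sum reversed to -0.26, Cd74 to -0.27, H2-Aa to -0.28, H2-Ab1 to -0.36, H2-Eb1 to -0.18, H2-DMa to -0.32 and H2-DMb1 to -0.47, and the positive shares became 41.7% and 38.2%. At limits of 1 UMI the macrophage shares were 53.7% and 38.2%.

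B cells together (-0.64 as reported) gave -0.36 with doublet calls kept, -0.88 with the stricter cell filter, -0.35 with every cell, -0.80 at resolution 0.5, -0.19 with members kept for clustering, -0.19 without the 5 highest cells, -0.47 with TMM, -0.49 with DESeq2 factors and -0.017 as the mean over cells. The direction reversed to 0.016 with separate clustering, where H2-Eb1 was 0.066. With classes from marker UMIs, which took a much larger set of cells, the ratio was 0.48. Cd74 was then 0.61, Ciita 0.44, H2-Aa 0.21, H2-DMa 0.28 and H2-Eb1 0.17. With members kept for clustering H2-Aa was 0.019, H2-Eb1 0.073 and the precursor sum 0.49, and as means over cells H2-Aa was 0.10, H2-DMa 0.0049 and the precursor sum 0.039. H2-DMb1 in mature B cells was 0.081 with the stricter cell filter. The marker class took 1596 and 2349 cells, against 433 and 211 clustered B cells, and its positive shares were 12.7% and 8.34%. Its median depths were 2107.5 and 2825 UMIs, against 853 and 880. Its Cd74 level was 453 and 297 CPM, against 1882 and 2886 CPM. The value of 0.48 therefore does not describe the same cells as the clustered B cell ratio. At limits of 1 and 5 UMIs the shares in B cells were 56.6% and 55.9%, and 23.6% and 25.6%, and after thinning 16.7% and 19.0%.

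Myeloid cells together (-0.44 as reported) gave -0.25 with doublet calls kept, -0.00441 with the stricter filter, -0.13 with every cell, -0.024 and 0.048 at resolutions 0.5 and 2, 0.16 with members kept, -0.11 with separate clustering, -0.38 without the 5 highest cells, -0.20 with TMM, -0.21 with DESeq2 factors, -0.10 as the mean over cells and -0.11 at the same mixture. Monocytes reversed from -1.0 to 0.38 with doublet calls kept, 2.15 with every cell, 0.57 and 1.11 at resolutions 0.5 and 2, 1.93 with members kept and 0.35 with separate clustering. All cells (0.36) gave 0.40 with doublet calls kept, 0.44 with every cell, 0.47 with TMM, 0.47 with DESeq2 factors, 0.39 as the mean over cells and 0.32 without mitochondrial, haemoglobin and ribosomal genes in the totals.

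The dendritic level in CPM was 44519 and 45205 with doublet calls kept, 43144 and 52752 with the stricter filter, 49588 and 47277 with every cell, 44260 and 47174 at resolution 0.5, 40776 and 47860 at resolution 2, 39490 and 44368 with members kept, 40667 and 47844 at immune resolution 1, and 38035 in Lipo-Clo with separate clustering, where Lipo-PBS had no dendritic class. The dendritic share of member UMIs was, in the same order, 34.8% in Lipo-Clo, 28.6% and 38.1%, 32.3% and 38.5%, 44.5% and 41.0%, 22.1% and 40.5%, 52.0% and 48.2%, 39.7% and 40.5%, and 37.3%. Of listed pathway genes in macrophages, 8 were higher and 6 lower as reported, 3 higher at 2-fold, and 15 higher and 10 lower with no UMI minimum. As reported, the processing, transcription, interferon γ, costimulation and class I lists had 15, 5, 6, 1 and 7 measured genes there. Over all genes measured in macrophages 13.7% were higher and 22% lower. In B cells 3 were higher and 12 lower, 6 higher with TMM and 6 with DESeq2 factors, and 1 higher and 5 lower at 2-fold. There the processing, transcription, interferon γ and class I lists had 13, 10, 7 and 8 measured genes as reported. Over all genes measured in B cells 8.97% were higher and 26.8% lower. The share over all genes is not given for the other settings, so those counts cannot be set against it. Depth limits Ciita, H2-DMb1 in B cells and every value from fewer than 20 UMIs.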

Other observations

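Granulocyte-monocyte progenitors, led by Prtn3 and Elane, showed H2-DMa UMIs in more cells than Cd74 UMIs, with intervals that overlap. In Lipo-Clo, 17 of 71 of these cells, 23.9% [14.6, 35.5], had an H2-DMa UMI (28 UMIs, 31 CPM [20.6, 44.8]). A Cd74 UMI was seen in 8.45% [3.16, 17.5] (21 UMIs, 23.3 CPM [14.4, 35.6]). The median depth of 11877 UMIs was the highest of the classes in that library, and with cells thinned to 1000 UMIs 0 of 69 were class II positive. In Lipo-PBS the class held 9 cells with 1 H2-DMa UMI and no Cd74 UMI.

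Plasmacytoid dendritic cells, 10 from Lipo-Clo and 5 from Lipo-PBS, were positive in 7 and 3 cells. Their summed level was 9800 and 3352 CPM. In osteoclasts, 48 and 9 cells, the sum was 416 and 376 CPM and 27.1% [15.3, 41.8] and 22.2% [2.81, 60.0] were positive. Lymphatic endothelial cells were positive in 13 of 150 cases in Lipo-PBS, 8.67% [4.70, 14.4], and in 0 of 30 in Lipo-Clo, where the interval reaches 11.6%.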
